A study of Rattus norvegicus with 16 samples.

Results

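The curcumin effect that the 6-week and the 12-week treatment had in common was examined in the cortex of aged rats. Its members were the 8 cortical arrays, of 16 arrays in all, found by the tissue given in the labels: 4 from curcumin-treated rats and 4 from control rats, with 2 arrays for each of the 4 groups of diet and duration. The rats were male Sprague-Dawley rats, 15 months old when the work began. The treated animals ate chow containing curcumin for 6 or 12 weeks, and the control animals ate the standard chow over the same time. Each group held 6 rats, and the cortices of 3 rats were pooled for RNA, so the arrays describe pools. By the labels, the paired arrays are biological replicates, but the design text describes hybridization in duplicate from the same RNA. The p-values therefore measure only the spread between these arrays. Whether it is technical was not settled, and some paired arrays differed in markers of neighbouring regions, as given below. In the fit over the 8 cortical arrays, that spread also includes a change of the curcumin effect with duration. Genes with like effects at both durations therefore stand out more from it. The hippocampal arrays, with the same diets and durations, were used for comparison and, in a further fit, for the estimate of the spread.

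Curcumin is the yellow polyphenol of turmeric. It is known for antioxidant and anti-inflammatory actions, the latter linked to reduced NF-kB signalling. The cortex holds neurons, whose synapses release transmitter from vesicles at an active zone onto receptors held by scaffold proteins, together with astrocytes, which clear glutamate and potassium, and with oligodendrocytes, which make myelin. In pooled tissue, fewer cells of a type and less RNA per cell cannot be told apart.

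The arrays gave log2 signals for 27342 transcript clusters, of which 15097 carried exactly 1 gene symbol and stood for 14324 genes. When a gene had several clusters, the brightest in the cortex was used for gene lists. Medians of the cortical arrays lay between 6.35 and 6.42, and the paired arrays of a group correlated at 0.990 to 0.995 across clusters. Prox1 and C1ql2, markers of hippocampal granule cells, reached at most 6.81 and 6.53 in the cortical arrays and at least 7.31 and 7.86 in the hippocampal ones, so the tissue labels were borne out by these genes. The layer markers Tbr1, Cux2 and Rorb had no cluster with a symbol of their own and were not analysed here. Some cortical arrays stood apart from their partners in markers of neighbouring regions. The mean level of 10 olfactory bulb markers was 7.87 in control replicate 2 after 6 weeks and at most 6.53 in the other 7 arrays. The mean of 15 striatal markers was 8.39 in control replicate 1 after 6 weeks and 7.88 in control replicate 2 after 12 weeks. It lay between 6.78 and 7.49 in the other 6 arrays. The arrays with these high values were all control arrays, and both 6-week control arrays were among them. The part of such tissue in the differences below was not tested.

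The additive model, with duration as a block, asked which transcripts differed between curcumin and control over both durations. No cluster passed an adjusted p of 0.05: 0 of 27342 were called higher and 0 lower, 0% in each direction (limma, Benjamini-Hochberg adjustment). The smallest adjusted p was 0.217, and 2308 clusters (8.44%) had an unadjusted p under 0.05, 1373 of them higher (5.02%) and 935 lower (3.42%) with curcumin. All differences of single genes below are therefore values that did not pass this test. To describe what lay on the same side at both durations, a cluster was called separated when the curcumin pair of arrays was above the control pair, without overlap, at both durations, or below it at both. At a single duration, in either direction, the pairs of 36.3% of clusters did not overlap after 6 weeks and 44.3% after 12 weeks. There were 1236 separated clusters with higher levels on curcumin (4.52%) and 847 with lower levels (3.1%). Separation in opposite directions was more frequent, with 2454 clusters (8.98%) against 2083 (7.62%) in the same direction. Across clusters, which are not independent replicates, the 6-week and 12-week differences correlated at -0.05 (Pearson's r). A difference of the curcumin effect between the durations was called for 1 cluster (0.00366%), which has no gene symbol, and 3409 clusters (12.5%) had an unadjusted p under 0.05 for it. The same cluster was the only 1 called (0.00366%) when the spread was taken around the 4 group means.

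**Figure D1:**
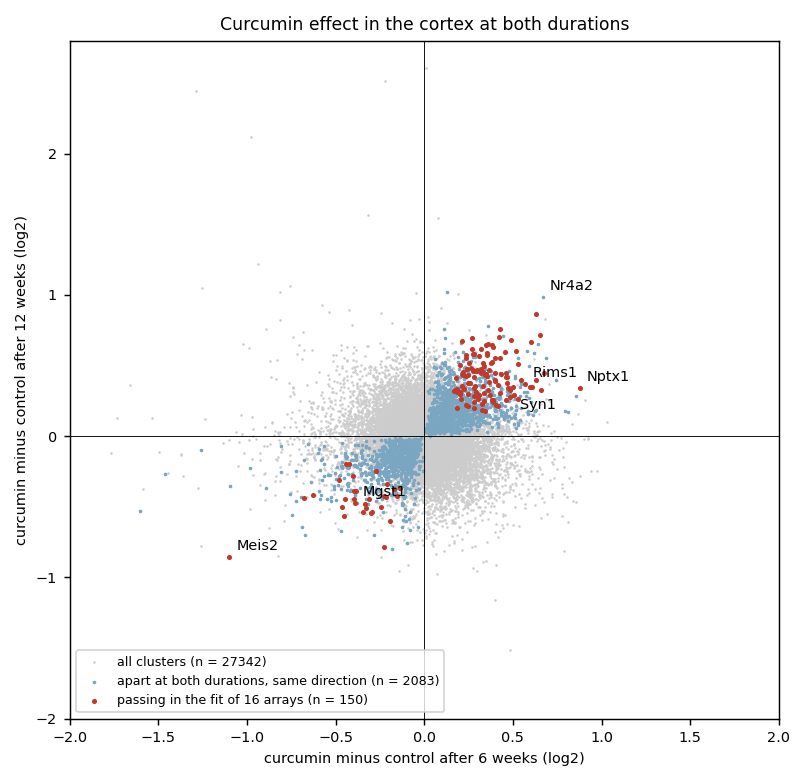
Each point is 1 transcript cluster, with the log2 difference between curcumin and control after 6 weeks on the x axis and after 12 weeks on the y axis. Blue points are the 2083 clusters separated in the same direction at both durations, red points the 150 that passed only in the fit of all 16 arrays, and grey points the rest, with no tilt of the cloud along either diagonal.

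All 46 gene lists were chosen with earlier results of these data known, so their shares and ranks here and below are descriptions. Among them, genes of transmitter release had the highest share of members that were separated with higher levels at both durations. Of 30 measured genes for synaptic vesicle release, 11 were separated with higher levels at both durations (36.7%, against 4.74% of all 14324 genes) and 0 with lower levels (against 3.57%). These shares of all genes stand beside the counts of every list below. The median difference of the list was 0.31 after 6 weeks and 0.15 after 12 weeks on the log2 scale, while the median over all genes was 0.00 and -0.01. With each array left out in turn, the list medians ranged from 0.25 to 0.36 after 6 weeks and from 0.07 to 0.17 after 12 weeks. In the whole list 19 genes were higher at both durations, 1 was lower at both (Vamp1, -0.11 and -0.34) and 10 changed sides. Of all 14324 genes, 23.7% were higher at both durations, 24.9% were lower at both and the rest changed sides. These shares stand beside such counts of sides in every list below. Of the release list, 0 passed the test over the 8 arrays.

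Syn1 encodes synapsin I, which tethers vesicles in the reserve pool. Its log2 level after 6 weeks was 9.36 and 9.45 in the curcumin arrays and 8.97 and 8.84 in the control arrays, and after 12 weeks it was 9.82 and 9.70 against 9.45 and 9.38. The curcumin arrays lay above the control arrays within each duration, while the 12-week controls reached the level of the 6-week curcumin arrays. The common difference was 0.42 ± 0.06 (SE, 4 arrays per diet; 1.34-fold), with an adjusted p of 0.217. Rims1, a scaffold of the active zone, was at 9.75 and 9.86 on curcumin and 9.31 and 9.16 on control chow after 6 weeks, and at 9.76 and 9.62 against 9.36 and 9.28 after 12 weeks. For Rims1 the 4 curcumin arrays lay above the 4 control arrays whatever the duration, with a difference of 0.47 ± 0.07.

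Further genes of this machinery lay on the same side. The vesicle priming factors Unc13a and Unc13b were higher by 0.29 and 0.51 after 6 weeks and by 0.46 and 0.29 after 12 weeks. The vesicle SNARE Vamp2 was higher by 0.24 and 0.56, the vesicle GTPase Rab3a by 0.34 and 0.18, and the active zone protein Pclo by 0.34 and 0.24. Slc17a7, the vesicular glutamate transporter of cortical excitatory neurons, was higher by 0.81 after 6 weeks and 0.17 after 12 weeks, and Cplx2, a complexin that clamps and primes fusion, by 0.57 and 0.28. Not all release genes took part. Stx1a, the plasma membrane syntaxin, was higher by 0.92 after 6 weeks and was at -0.02 after 12 weeks, and Sv2b, a vesicle glycoprotein, was at 0.78 and -0.34. Nsf and Syt4 also had opposite signs, at 0.28 and -0.28 and at 0.32 and -0.29. The mean level of the release list was 9.20 and 9.34 on curcumin against 9.02 and 8.89 after 6 weeks. After 12 weeks it was 9.37 and 9.27 against 9.19 and 9.19. Both 6-week control arrays were those with high bulb or striatal markers, and the part of such tissue in these values was not tested.

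On the postsynaptic side, 9 of 36 measured scaffold and glutamate receptor genes were separated with higher levels (25%) and 0 with lower levels. The list medians were 0.16 and 0.09, 17 genes were higher at both durations, 3 were lower at both and 16 changed sides. Nlgn2, the neuroligin of inhibitory synapses, was at 8.06 and 8.07 on curcumin against 7.81 and 7.64 on control chow after 6 weeks, and at 8.37 and 8.41 against 7.70 and 7.79 after 12 weeks. Its 4 curcumin arrays lay above its 4 control arrays, and the common difference was 0.50 ± 0.08 (1.41-fold, adjusted p = 0.217). The postsynaptic scaffold genes Shank1 and Shank2 were higher by 0.35 and 0.14 after 6 weeks and by 0.57 and 0.49 after 12 weeks. Dlgap2, Dlgap4 and Dlg3, which join receptors to that scaffold, were higher by 0.13 to 0.37. The AMPA receptor subunits Gria1 and Gria2 were at -0.02 and 0.07 after 6 weeks and at -0.07 and -0.11 after 12 weeks. Of the kainate and metabotropic receptors, Grik5 and Grm7 were separated, with 0.09 and 0.17 after 6 weeks and 0.49 and 0.15 after 12 weeks. Among 17 measured genes of GABA synthesis, receptors and transport, 0 were separated in either direction.

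**Figure D2:**
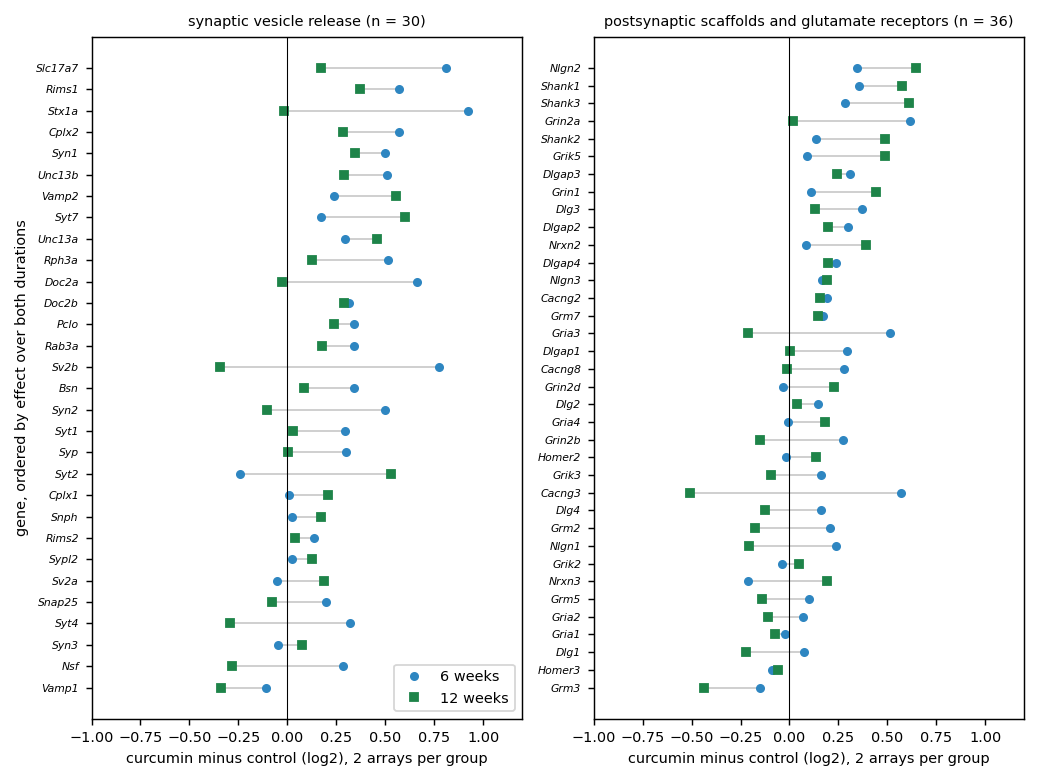
Differences between curcumin and control in the cortex (log2, x axis; mean of 2 arrays minus mean of 2 arrays) for the 30 vesicle release genes and the 36 postsynaptic genes, ordered by their effect over both durations. Circles are 6 weeks and squares 12 weeks; both symbols lie right of 0 for 19 and 17 genes, and genes such as Stx1a, Sv2b and Cacng3 have 12-week values at or left of 0.

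The promoters of Syn1 and Rims1, and those of 2 genes with lower levels described further on, Mgst1 and Mlc1, are shown because these genes lay apart at both durations and belong to different cell types. They are the 250 bases before the start in RefSeq, rat assembly GRCr8, 5′ to 3′. Capitals mark matches on either strand to the core of the cyclic AMP response element (TGACG) or to the GC box (GGGCGG).
Syn1 (chrX:3725495-3725744, + strand): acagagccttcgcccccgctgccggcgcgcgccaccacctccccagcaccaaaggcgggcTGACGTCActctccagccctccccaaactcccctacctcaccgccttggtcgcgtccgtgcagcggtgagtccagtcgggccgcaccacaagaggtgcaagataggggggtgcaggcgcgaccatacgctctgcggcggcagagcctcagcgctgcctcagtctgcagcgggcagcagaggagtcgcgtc
Rims1 (chr9:32692773-32693022, - strand): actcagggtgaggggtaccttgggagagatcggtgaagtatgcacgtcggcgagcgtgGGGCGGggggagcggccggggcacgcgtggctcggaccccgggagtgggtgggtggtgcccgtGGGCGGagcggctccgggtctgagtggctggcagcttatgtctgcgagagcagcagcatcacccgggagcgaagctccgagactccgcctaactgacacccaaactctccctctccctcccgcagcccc
Mgst1 (chr4:172760680-172760929, + strand): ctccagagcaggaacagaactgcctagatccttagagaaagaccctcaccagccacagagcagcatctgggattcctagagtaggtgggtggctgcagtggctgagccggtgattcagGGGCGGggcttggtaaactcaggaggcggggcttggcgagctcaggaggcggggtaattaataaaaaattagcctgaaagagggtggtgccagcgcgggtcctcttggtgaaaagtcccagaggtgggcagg
Mlc1 (chr7:121946699-121946948, - strand): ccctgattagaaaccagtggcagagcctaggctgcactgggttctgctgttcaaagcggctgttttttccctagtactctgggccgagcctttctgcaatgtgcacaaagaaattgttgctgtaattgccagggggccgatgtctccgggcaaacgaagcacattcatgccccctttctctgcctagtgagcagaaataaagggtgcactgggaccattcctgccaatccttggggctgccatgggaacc
Syn1 held 2 overlapping core matches, 1 on each strand, Rims1 held 2 GC boxes and Mgst1 held 1, and Mlc1 held neither motif. Over windows of this length from 11823 genes with a cluster, 23.1% held the cyclic AMP core, 47.2% the GC box, 6.82% an E-box (CACGTG) and 11.7% the antioxidant element core (TGACNNNGC). A match is a run of letters and not a binding site.

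Other neuronal groups shared the direction in part. Of 38 measured genes for cytoskeleton and axonal transport, 11 were separated with higher levels (28.9%) and 1 with lower levels, with list medians of 0.15 and 0.07. The kinesin motor gene Kif3c was at 9.42 and 9.54 on curcumin against 9.27 and 9.10 after 6 weeks, and at 9.51 and 9.57 against 9.15 and 8.99 after 12 weeks. Its groups did not overlap, and the common difference was 0.38 ± 0.07. Mapt, which encodes tau, was higher by 0.17 and 0.33, the spine actin-binding protein gene Dbn1 by 0.15 and 0.47, and the neurofilament gene Ina by 0.31 and 0.46. The member with lower levels was the kinesin heavy chain gene Kif5b, at -0.31 and -0.26.

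Among 24 sodium and calcium channel genes, 3 were separated with higher levels (12.5%) and 0 with lower levels. Cacna1b, the pore of the N-type calcium channel at nerve terminals, was higher by 0.33 after 6 weeks and 0.52 after 12 weeks, with a common difference of 0.43 ± 0.08. The others were Scn8a, an axonal sodium channel (0.48 and 0.14), and Cacnb1, a calcium channel subunit (0.27 and 0.20). The 6-week median of this list, 0.13, was -0.03 without curcumin replicate 2. Of 32 potassium channel genes 3 were separated with higher levels (9.38%, against 4.74% of all genes), namely Kcnma1, Kcnk9 and Kcnj6. Kcnma1, a calcium-activated channel, had a common difference of 0.24 ± 0.05.

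Of 36 genes of cyclic AMP and calmodulin kinase signalling, 5 were separated with higher levels (13.9%), although the list median was 0.19 after 6 weeks and -0.02 after 12 weeks. Adcy1, the calmodulin-stimulated adenylyl cyclase of neurons, was at 9.85 and 10.17 on curcumin against 9.41 and 9.45 after 6 weeks, and at 10.19 and 9.95 against 9.58 and 9.35 after 12 weeks. This was a difference of 0.59 ± 0.09 (1.51-fold) with no overlap between the diets, and its adjusted p was 0.217. Prkaca, the catalytic subunit of protein kinase A, was higher by 0.18 and 0.21, and Crtc1, a coactivator of CREB, by 0.23 and 0.20. Camk2a, the abundant kinase of excitatory synapses, was higher by 0.46 after 6 weeks and by 0.04 after 12 weeks.

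Of 14 neurotrophin signalling genes, 4 were separated with higher levels (28.6%): the receptor genes Ntrk2 (0.15 and 0.18) and Ntrk3 (0.13 and 0.31) and the kinase genes Akt1 (0.18 and 0.19) and Braf (0.12 and 0.08). The ligand gene Bdnf was at 0.17 after 6 weeks and -0.05 after 12 weeks. In the Wnt pathway 4 of 25 genes were separated with higher levels (16%, against 4.74% of all genes). With lower levels 1 was separated (4%, against 3.57%), the secreted antagonist gene Sfrp2. Gsk3a, a kinase of that pathway, had a common difference of 0.39 ± 0.09. Of 21 activity-induced early genes, 5 were higher at both durations, 5 were lower at both and 11 changed sides. With higher levels 1 was separated (4.76%, against 4.74% of all genes) and 0 with lower levels. The separated member was Nr4a2, an orphan nuclear receptor induced by activity. It was at 8.29 and 8.70 on curcumin against 8.16 and 7.50 after 6 weeks, and at 8.60 and 9.09 against 7.66 and 8.07 after 12 weeks, with a common difference of 0.83 ± 0.19. The paired arrays of Nr4a2 lay farther from each other than those of Syn1 and Rims1.

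The 12 genes with higher levels that stood out most from their spread were Pip5k1c, MAST1, Usp13, Sez6l, Adam11, Syn1, Rims1, Galnt17, Sez6l2, Pacs1, Myrip and Arhgap44. Their common differences lay between 0.31 and 0.56, or 1.24-fold to 1.47-fold, each with an adjusted p of 0.217. For 11 of them the 4 curcumin arrays lay above the 4 control arrays, the exception being Syn1. Pip5k1c encodes the kinase that makes phosphatidylinositol 4,5-bisphosphate at nerve terminals. It was at 8.56 and 8.58 against 8.18 and 8.04 after 6 weeks and at 8.96 and 8.78 against 8.46 and 8.45 after 12 weeks, a difference of 0.44 ± 0.06. Sez6l and Sez6l2, seizure-related membrane proteins of neurons, were higher by 0.52 ± 0.07 and 0.48 ± 0.07. Galnt17, a member of a family of sugar transferases, had the largest common difference of the 12, 0.56 ± 0.08. Usp13, a deubiquitinating enzyme, had the smallest, 0.31 ± 0.04, with 8.34 and 8.31 against 8.05 and 8.04 after 6 weeks and 8.13 and 8.10 against 7.82 and 7.73 after 12 weeks. Myrip, which links vesicle Rab proteins to myosin, and Arhgap44, a GTPase-activating protein of dendritic spines, were higher by 0.51 ± 0.08 and 0.45 ± 0.07. Adam11, a neuronal ADAM protein without protease activity, was higher by 0.51 ± 0.07, and the microtubule-associated kinase gene MAST1 by 0.49 ± 0.07. Pacs1, a sorting protein of the secretory pathway, was higher by 0.31 after 6 weeks and 0.57 after 12 weeks.

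**Figure D3:**
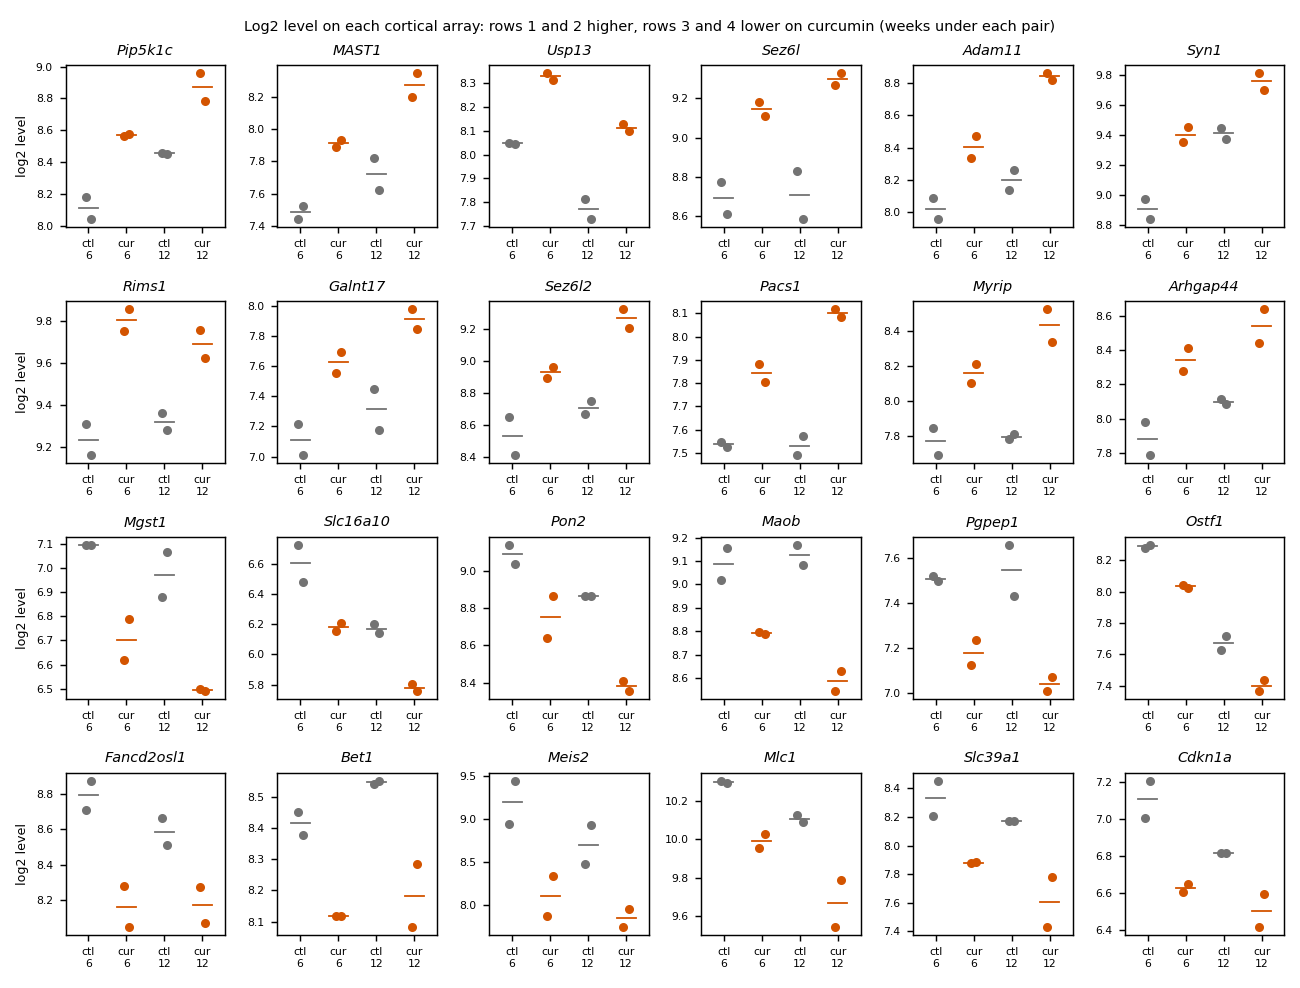
Log2 level on each cortical array for the 24 genes that stood out most, 12 with higher levels on curcumin (upper rows) and 12 with lower levels (lower rows). In each panel the groups are control (ctl, grey) and curcumin (cur, orange) after 6 and after 12 weeks, points are arrays and lines the means of 2 arrays; within each duration the diets do not overlap, which the choice of the genes required.

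The 12 genes with lower levels that stood out most were Mgst1, Slc16a10, Pon2, Maob, Pgpep1, Ostf1, Fancd2osl1, Bet1, Meis2, Mlc1, Slc39a1 and Cdkn1a. Their common differences lay between -0.26 and -0.98, with adjusted p of 0.217 to 0.219, and for 9 of them the 4 curcumin arrays lay below the 4 control arrays. Mgst1 encodes a microsomal glutathione transferase that handles lipid peroxides. It was at 6.62 and 6.79 on curcumin against 7.10 and 7.09 after 6 weeks, and at 6.50 and 6.49 against 6.88 and 7.06 after 12 weeks. The diets did not overlap, and the common difference was -0.43 ± 0.06. Pon2, an intracellular lactonase with antioxidant activity, was lower by 0.34 and 0.48 in the respective durations, which gave -0.41 ± 0.06. Maob, the monoamine oxidase enriched in astrocytes, was at 8.80 and 8.79 against 9.02 and 9.15 after 6 weeks and at 8.54 and 8.63 against 9.17 and 9.08 after 12 weeks (-0.42 ± 0.07). Cdkn1a, the cell cycle inhibitor p21, had a difference of -0.40 ± 0.07. The zinc importer gene Slc39a1 was at -0.51 ± 0.09, the amino acid transporter gene Slc16a10 at -0.41 ± 0.06 and Bet1, a SNARE between endoplasmic reticulum and Golgi, at -0.33 ± 0.06.

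Meis2, a homeodomain transcription factor expressed in olfactory bulb and striatal neurons, had the largest of these differences. Its level after 6 weeks was 7.87 and 8.33 on curcumin against 8.95 and 9.45 on control chow, and after 12 weeks 7.74 and 7.96 against 8.48 and 8.93, with a common difference of -0.98 ± 0.16. The highest value came from the 6-week control array with high olfactory bulb markers, and without it the difference was -0.85. The next highest values, 8.95 and 8.93, came from the 2 control arrays with high striatal markers. The difference was -1.05 without the 6-week array of these and -0.91 without the 12-week array. Of the 10 olfactory bulb markers, Meis2 among them, 2 were separated with lower levels (20%) and 0 with higher levels, the other being the calcium-binding protein gene Scgn (-1.46 and -0.27). In all 4 were lower at both durations, 0 were higher at both and 6 changed sides. The list median was -1.17 after 6 weeks (-0.23 without that array) and 0.03 after 12 weeks. The part of bulb or striatal tissue in the Meis2 values was not tested.

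Of 15 measured astrocyte markers, 5 were separated with lower levels (33.3%, against 3.57% of all genes) and 0 with higher levels. In the whole list 11 were lower at both durations, 1 was higher at both and 3 changed sides, and 0 passed the test over the 8 arrays. The list medians were -0.11 and -0.14, and ranged from -0.17 to -0.11 after 6 weeks and from -0.31 to -0.00 after 12 weeks with 1 array left out, the value nearest to 0 arising without the 12-week curcumin replicate 1. Mlc1, a membrane protein of astrocyte endfeet, was at 9.96 and 10.03 against 10.31 and 10.29 after 6 weeks, and at 9.54 and 9.79 against 10.12 and 10.09 after 12 weeks. Its 4 curcumin arrays lay below its 4 control arrays, with a difference of -0.38 ± 0.06. The water channel gene Aqp4 was lower by 0.33 and 0.37, the glutamate transporter gene Slc1a3 by 0.13 and 0.23, the urea transporter gene Slc14a1 by 0.10 and 0.60, and S100b by 0.15 and 0.11. Gfap, the intermediate filament of astrocytes, was at -0.81 and -0.32 without being separated at both durations. Slc1a2, the main glutamate transporter, was at 0.13 and -0.03.

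Corticosteroid-responsive genes formed the list with the highest share of separated members with lower levels: 7 of 18 (38.9%), with 0 of higher level and medians of -0.07 and -0.24. With 1 array left out the medians ranged from -0.17 to -0.04 and from -0.24 to -0.15. Beside Cdkn1a the separated members were Sgk1 (-0.59 and -0.45), a kinase induced by glucocorticoids, Tsc22d3 (-0.30 and -0.38), the glucocorticoid-induced leucine zipper, Pdk4 (-0.81 and -0.25), which inhibits pyruvate dehydrogenase, Errfi1 (-0.39 and -0.42), an inhibitor of growth factor receptors, Nfkbia (-0.36 and -0.27) and Ddit4 (-0.10 and -0.32), an inhibitor of mTOR signalling. Other members did not share this. Fkbp5, a widely used marker of glucocorticoid action, was at -0.05 and -0.13, and Per1 had opposite signs at -0.26 and 0.32. The receptor gene Nr3c1 was at 0.07 after 6 weeks and -0.45 after 12 weeks.

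Genes of NF-kB signalling and inflammation were separated with lower levels in 5 of 28 cases (17.9%) and with higher levels in 0. Of the 28, 15 were lower at both durations and 3 were higher at both. The medians were -0.08 and -0.05. With 1 array left out they ranged from -0.15 to -0.04 after 6 weeks, the ends arising without control replicate 1 and control replicate 2, and from -0.11 to -0.01 after 12 weeks, the ends arising without control replicate 2 and control replicate 1. Vcam1, an adhesion molecule for leukocytes, was at 7.69 and 7.81 against 7.91 and 7.98 after 6 weeks and at 7.32 and 7.56 against 8.10 and 7.98 after 12 weeks (-0.40 ± 0.10, adjusted p = 0.345). Nfkbia, the inhibitor that NF-kB itself induces, is named above, and Il1r1, the interleukin 1 receptor, and Myd88, an adaptor of Toll-like receptors, were lower by 0.44 and 0.18 after 6 weeks and by 0.15 and 0.24 after 12 weeks. Tlr2 was at -0.04 and -0.06. Of the cytokine genes, Tnf was at 0.02 and -0.02 and Il1b at 0.09 and 0.17.

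Of 28 measured genes for Nrf2 and antioxidant enzymes, 4 were separated with lower levels (14.3%) and 0 with higher levels. The list medians were -0.03 and -0.12. The 6-week median was 0.04 without curcumin replicate 1. The separated members were Nfe2l2, which encodes Nrf2 (-0.49 and -0.35), Gpx1, the cytosolic glutathione peroxidase (-0.16 and -0.24), and the peroxiredoxin genes Prdx1 (-0.36 and -0.12) and Prdx2 (-0.05 and -0.15). Hmox1, the heme oxygenase often used to read Nrf2 activity, was at -0.09 and -0.03, and Nqo1 at -0.22 and -0.16. Sod1 and Gpx4 lay on the other side, at 0.04 and 0.11 after 6 weeks and at 0.41 and 0.18 after 12 weeks.

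Of 22 amyloid and Alzheimer risk genes, 1 was separated with higher levels (4.55%, against 4.74% of all genes), namely Mapt, described above. With lower levels 4 were separated (18.2%, against 3.57%): Adam17 (-0.48 and -0.27), an amyloid precursor protein-cleaving protease, Cav1 (-0.18 and -0.80), the caveolin, Psenen (-0.13 and -0.26), a subunit of gamma-secretase, and Clu (-0.09 and -0.24), the chaperone clusterin. App itself was at 0.18 and -0.00. Among 37 cytosolic ribosomal protein genes 5 were separated with lower levels (13.5%) and 0 with higher levels, although the list median was -0.11 after 6 weeks and 0.01 after 12 weeks.

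Of 14 markers of excitatory cortical neurons, 3 (Nptx1, Cplx3 and Slc17a7) were separated with higher levels (21.4%, against 4.74% of all genes) and 0 with lower levels. The list median was 0.46 after 6 weeks and 0.03 after 12 weeks. Nptx1, a pentraxin that clusters AMPA receptors, was at 8.97 and 9.04 against 8.20 and 8.05 after 6 weeks, and at 9.42 and 8.999 against 8.87 and 8.87 after 12 weeks. The mean level of these markers was 8.66 and 8.86 on curcumin against 8.40 and 8.31 on control chow after 6 weeks. Both of these 6-week control arrays had high bulb or striatal markers. After 12 weeks the range on curcumin, 8.66 to 8.79, enclosed that on control chow, 8.68 to 8.74. Of 16 oligodendrocyte and myelin markers, 15 were lower at both durations and 0 higher, with medians of -0.76 and -0.14. Only Tspan2 and Enpp2 were separated, and the arrays of a group differed widely. The mean marker level was 7.94 and 8.76 on curcumin against 9.29 and 8.83 after 6 weeks, and 8.14 and 8.55 against 8.36 and 8.75 after 12 weeks. The 6-week median of this list was -0.29 without curcumin replicate 1 and -1.19 without curcumin replicate 2, and the 12-week median was 0.03 without the 12-week curcumin replicate 1. The 15 striatal markers had 0 separated members, and their medians of -0.51 and -0.15 became 0.40 without the 6-week control replicate 1 and 0.22 without the 12-week control replicate 2.

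Endothelial markers were separated with lower levels in 2 of 13 cases (15.4%, against 3.57% of all genes). These were Slc2a1, the glucose transporter of the blood-brain barrier (-0.47 and -0.21), and Cldn5, its tight junction claudin (-0.27 and -0.21). The list median was -0.14 and -0.21. The 6-week value was 0.02 without curcumin replicate 1. Of 18 microglial markers 2 were separated with lower levels (11.1%), Ctss (-0.41 and -0.27) and P2ry13 (-0.16 and -0.21). The microglial list median was -0.33 after 6 weeks and 0.08 after 12 weeks. Of 7 measured red cell genes 2 were separated with lower levels (28.6%, against 3.57% of all genes) and 0 with higher levels. The red cell medians were -0.37 and -0.16. Among the separated members, Hbb-b1 was at 7.06 and 6.92 against 7.72 and 9.46 after 6 weeks, so 1 control array held most of its 6-week difference. After 12 weeks Hbb-b1 was at 7.81 and 7.52 against 8.49 and 7.90. The part of these cell types in the synaptic, astrocyte and other values was not tested.

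**Figure D4:**
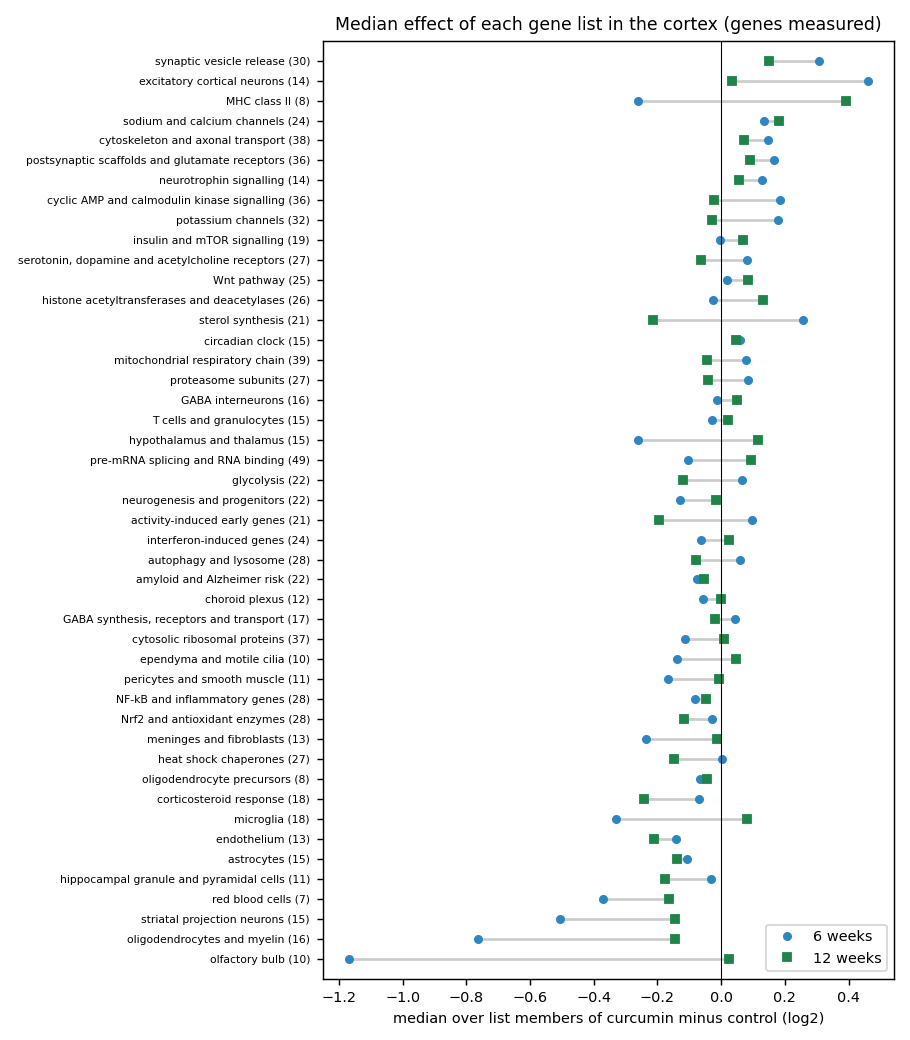
Median difference between curcumin and control in the cortex (log2, x axis) of each of the 46 gene lists, with the number of measured genes in brackets; circles are 6 weeks and squares 12 weeks. The medians lie right of 0 at both durations for 8 lists, left of 0 at both for 15, and on different sides for 23, among them MHC class II, sterol synthesis and the olfactory bulb.

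Several groups had no direction in common. The median of 21 sterol synthesis genes was 0.26 after 6 weeks and -0.21 after 12 weeks, and that of 8 MHC class II genes was -0.26 and 0.39. Activity-induced early genes were at 0.10 and -0.20 as a list, and pre-mRNA splicing genes at -0.10 and 0.09, with 36 of 49 members on opposite sides. Of 22 genes of neurogenesis and progenitors, 0 were separated with higher levels and 1 with lower levels, Pax6, a factor of neural progenitors. It was at 6.19 and 6.32 on curcumin against 6.49 and 7.16 after 6 weeks and at 6.10 and 6.16 against 6.45 and 6.38 after 12 weeks. The value of 7.16 came from the control array with high olfactory bulb markers, and the common difference of -0.42 was -0.26 without it. The part of bulb tissue in it was not tested. Of 39 respiratory chain genes 2 were separated with higher levels (5.13%), close to the 4.74% of all genes. Heat shock chaperones had 2 of 27 separated with lower levels (7.41%, against 3.57% of all genes), including Hspa5, the endoplasmic reticulum chaperone (-0.25 ± 0.06). The circadian list had 3 of 15 separated with higher levels (20%), Per2 (0.22 and 0.41) first among them, and 1 with lower levels (6.67%).

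The remaining lists had 0 to 3 separated members in each direction, beside 4.74% of all genes with higher and 3.57% with lower levels. Their shares were not tested against those of all genes. Of 27 proteasome genes 3 had higher levels (11.1%) and 0 lower, among them the core subunit gene Psma5 (0.18 and 0.24). Of 19 insulin and mTOR genes 2 had higher levels (10.5%), among them Mtor itself (0.12 and 0.27). The nicotinic receptor subunit gene Chrna4 was the separated member of 27 serotonin, dopamine and acetylcholine receptors, with 0.42 and 0.29. Autophagy and lysosome genes had 3 members on each side of 28, glycolysis 1 higher and 2 lower of 22, and histone acetyltransferases and deacetylases 1 on each side of 26, the lower being Hat1, a histone acetyltransferase (-0.12 and -0.43). Splicing genes had 3 of 49 with lower levels (6.12%), including the RNA-binding protein gene Tardbp (-0.13 and -0.16), and 24 interferon-induced genes had 0. Among cell type lists, 1 pericyte marker of 11 had lower levels, 1 T cell or granulocyte marker of 15, 1 hippocampal cell marker of 11, and 2 choroid plexus markers of 12 against 1 with higher levels. Markers of GABA interneurons (16), oligodendrocyte precursors (8), meninges (13), ependyma (10) and hypothalamus or thalamus (15) had 0 separated members.

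Large differences in common were few. In 13 clusters (0.0475%) the ratio of curcumin to control was 1.5 or more at both durations (7 clusters, 0.0256%) or 0.66 or less (6 clusters, 0.0219%). Those with a gene symbol were Vwa3a, Nr4a2 and the chromatin organiser Satb1 with higher levels, and Cdhr1, Meis2, the enkephalin precursor gene Penk and Gpd1, the cytosolic glycerol-3-phosphate dehydrogenase, with lower levels. Penk was at 7.67 and 8.86 on curcumin against 9.89 and 8.28 after 6 weeks and at 7.45 and 7.94 against 7.75 and 9.34 after 12 weeks, so its diets overlapped at both durations, as did those of Cdhr1 and Vwa3a after 6 weeks. The high Penk values, 9.89 and 9.34, came from the 2 control arrays with high striatal markers. The highest value of the bulb marker Cdhr1, 8.58, came from the 6-week control array with high bulb markers, against 5.96 in its partner. The part of those tissues in both differences was not tested. Satb1 was separated, at 8.99 and 9.37 against 8.42 and 8.71 after 6 weeks and at 9.32 and 9.29 against 8.999 and 8.43 after 12 weeks. Gpd1 was separated too, with 8.85 and 9.51 against 10.01 and 9.69, and 8.56 and 8.81 against 9.23 and 9.55. The count was 41 without the 12-week curcumin replicate 2 and 27 without the 12-week control replicate 1.

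When the hippocampal arrays were added so that 16 arrays shared 1 estimate of the spread, 120 cortical clusters passed as higher (0.439%) and 30 as lower (0.11%) at an adjusted p of 0.05, and all 150 were also separated. Of the genes named above, those that passed there were Pip5k1c, MAST1, Usp13, Sez6l, Adam11, Syn1, Rims1, Galnt17, Sez6l2, Pacs1, Myrip, Arhgap44, Nlgn2, Cacna1b, Kif3c, Nptx1, Gsk3a and Mapt with higher levels, together with Shank1, Vamp2, Rab3a, Unc13a and Unc13b. With lower levels they were Mgst1, Pon2, Maob, Pgpep1, Fancd2osl1, Meis2, Mlc1, Slc39a1, Cdkn1a, Vcam1 and Lamp2, a lysosomal membrane protein (-0.48 ± 0.09). The list for vesicle release had 6 of its 30 genes among them, against 0.559% of all genes with higher levels. These calls are weaker than the adjusted p implies. On data simulated with the spread of each tissue, this fit called unchanged clusters more often than its threshold allows. The simulation took each cluster's own estimated spread as true, so the rate of such calls in the real data is not known. The spread that the fit shares was smaller in the hippocampus. Over the 150 clusters the median residual SD was 0.0985 in the cortex and 0.0753 in the hippocampus, and it was larger in the cortex for 109. The count also depended on single arrays. It was 0 without the cortical 12-week control replicate 2, 41 without control replicate 1 of that group, 21 without the cortical 12-week curcumin replicate 1 and 80 without the cortical 6-week control replicate 2. Without either 6-week hippocampal curcumin array it was 89 or 72, and without either 6-week hippocampal control array 90 or 79.

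In promoters of the genes that passed in that fit, the GC box was found in 64.6% of 65 windows of genes with higher levels and in 59.1% of 22 windows of genes with lower levels. The cyclic AMP core was found in 26.2% and 31.8% of them. These shares are descriptions with no test, beside the 47.2% and 23.1% given above for genes with a cluster.

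In the hippocampus the 24 genes that stood out most in the cortex had differences over both durations between -0.11 and 0.09. None of the 24 were separated there, though single durations could lie farther from 0, as for Adam11 at 0.07 and -0.29. Syn1 was at -0.05 and Mgst1 at 0.09. The 24 genes were picked for their cortical difference, so smaller values elsewhere follow in part from the choice. Of all 56 named genes 2 were separated in the hippocampus, both lower as in the cortex. They were Vcam1 (-0.09 and -0.08) and Hspa5 (-0.22 and -0.10). Adcy1 was at -0.00 after 6 weeks and 0.79 after 12 weeks in the hippocampus. The difference between the tissues itself, tested in the fit of 16 arrays, was called for 0 of 27342 clusters, with 1927 (7.05%) at an unadjusted p under 0.05, and its adjusted p for the 24 genes lay between 0.104 and 0.673. In the hippocampus on its own 603 clusters were separated with higher levels (2.21%) and 841 with lower levels (3.08%), and 0 passed the adjusted p in the fit of 16 arrays, with 834 (3.05%) at an unadjusted p under 0.05.

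**Figure D5:**
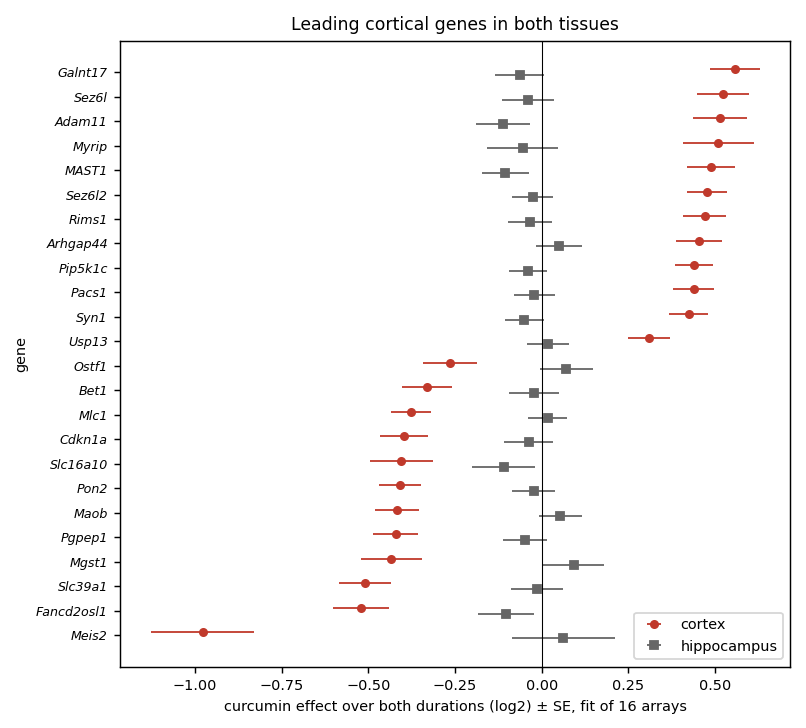
Curcumin effect over both durations (log2, x axis) with its standard error from the fit of 16 arrays, for the 24 genes that stood out most in the cortex, in the cortex (red circles) and the hippocampus (grey squares). Cortical values run from -0.98 to 0.56 and hippocampal ones from -0.11 to 0.09; the tissue difference passed an adjusted p of 0.05 for none of them.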

How the data were processed

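Log2 signals per transcript cluster were deposited for 16 Affymetrix arrays, made by the authors with RMA from Expression Console data; Gene Spring is also named. No version or genome build is given in the sources used here. RMA makes array distributions alike, so a shift of all transcripts would be lost. The paper names a rat exon array and the annotation a rat gene array, which was not settled. Symbols came from that annotation and RefSeq (15067 clusters matched). The deposited log2 values were fitted without further scaling in limma 3.58.1 (R 4.3.3; lmFit, eBayes; residual df 5) over the 8 cortical arrays with duration and diet as terms, and p-values were adjusted (Benjamini-Hochberg) over 27342 clusters; figures used matplotlib 3.10.9. The number of arrays limits the precision. The scripts were tested on simulated data. Named genes were, as none passed, the 12 highest and the 12 lowest by moderated t among separated clusters with 1 symbol, plus the separated member of each list with the largest absolute t (56 in all); other list members, the genes at 1.5-fold and those passing the 16-array fit were chosen to describe their lists after their values were seen. The members and gene lists (29 pathways, 17 cell types or tissues) were chosen with earlier results of these data known. Alternatives were other scalings, thresholds, spread estimates and blocks, the means of each group, and leaving out each array. The deviations of same-numbered arrays from their group means correlated at -0.06 after 6 weeks and 0.01 after 12 weeks, so the replicate numbers were not taken as pairs.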

Additional observations from a re-analysis of the deposited data

Results flagged for a closer look

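A transcript cluster without a gene symbol (10803049) had curcumin effects that differed between the durations. Its log2 level was 4.89 and 4.85 on curcumin against 4.83 and 4.90 on control chow after 6 weeks, and 7.67 and 7.46 against 4.98 and 4.94 after 12 weeks. The 12-week minus 6-week difference of the effect was 2.60 ± 0.12 (SE, limma, adjusted p = 0.00366). It was the only 1 of 27342 clusters (0.00366%) called for such a difference, while 3409 had an unadjusted p under 0.05. Its level is therefore not part of the effect common to both durations, although it was the only cluster called, as higher, when the spread was estimated around the 4 group means (adjusted p = 0.00349).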

How the results depend on the processing

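The counts of 0 called clusters in each direction stayed at 0 with the dimmest 25% left out, quantile normalization, array medians subtracted, a variance trend, array weights, the group as a random block, an adjusted p of 0.10 and each of the 8 arrays left out (0 to 0). They moved to 1 higher with the spread around group means and to 120 higher and 30 lower with all 16 arrays. With the replicate number as a block 0 were called and the adjusted p of the 56 named genes lay between 0.468 and 0.848; with the mean of the 2 arrays of a group it was 0.9997. The 13 clusters at 1.5-fold became 196 at a log2 difference of 0.32 in place of 1.5-fold, and 10 to 41 with 1 array left out. Separated clusters became 1674 to 2313 higher and 1386 to 1993 lower with 1 array left out, since fewer arrays then have to be beyond each other. For the fit of 16 arrays, settings added after seeing the data gave 75 higher and 12 lower with medians subtracted, 61 lower with quantile normalization, 221 and 93 around group means, 184 and 93 with array weights, 200 and 70 with the group as a random block, 2 and 1 with the replicate block, and 0 to 164 and 0 to 82 with 1 array left out; the cause was not tested. The difference between durations was called for 1 cluster, 0 with the replicate block and 0 to 17 with 1 array left out. No named gene changed direction in any setting, with 55 of the 56 measured when the dimmest 25% were left out. This was largely fixed by their choice. Every named gene had to be separated at both durations, so leaving out 1 array could not reverse it.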
